A study of Mus musculus with 12 samples.

Results

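The nuclear genes of the mitochondrial respiratory chain were followed in mouse liver with and without Fah and p21. Members were all probe sets of the Affymetrix 430A array that carry 1 gene symbol beginning with Nduf (complex I), with Sdh and the letter a, b, c or d (complex II), with Uqcr (complex III), with Cox4 to Cox8 (complex IV) or with Atp5 (complex V). This gave 160 probe sets for 87 genes, of 22626 probe sets and 12393 genes in all. Of these, 147 probe sets for 84 genes were bright enough to be tested, and Cox7c, Cox7a1 and Cox8b were not. The 84 genes were split into 38 of complex I, 7 of complex II, 8 of complex III, 14 of complex IV and 17 of complex V, and they included 8 assembly factors, which help to build a complex without being part of it. Ndufa4 is named for complex I but is counted here with complex IV, where its protein is now placed.

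The Double knockout group held 2 livers of Fah, p21 knockout mice off NTBC, and the Single knockout group held 3 livers of Fah knockout mice off NTBC. The Normal group held 4 livers, 1 per condition: Normal 1 was a wildtype mouse on water, Normal 2 a wildtype mouse on NTBC, Normal 3 a Fah knockout on NTBC and Normal 4 a Fah, p21 knockout on NTBC. Mice were 10 weeks of age, and off NTBC means 14 days since the drug was withdrawn. On a second array type, 430 2.0, were 2 more livers of the Double knockout and 1 Normal liver, numbered 4 and of the same genotype and treatment as Normal 4 on 430A. By their titles the arrays are biological replicates. The sources used here give neither strain nor sex nor how the alleles were made. A value is the signal of 1 probe set on 1 array, on a linear scale that has no unit, and signals of different probe sets are not compared. Changes are log2 fold changes of log2(signal + offset) with their standard error, and a probe set passed where limma's adjusted p over all probe sets tested was under 0.05.

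The respiratory chain passes electrons from food to oxygen and stores the energy as a proton gradient across the inner mitochondrial membrane. Complex I takes electrons from NADH and complex II, which is also the succinate dehydrogenase of the tricarboxylic acid cycle, takes them from succinate. Both hand them to coenzyme Q, from which complex III passes them through cytochrome c to complex IV, where oxygen is reduced. Complex V, the ATP synthase, lets protons flow back and makes ATP. Most subunits are encoded in the nucleus and imported, while a few central ones are encoded in mitochondrial DNA. Fah encodes the last enzyme of tyrosine breakdown, NTBC blocks an earlier step so that toxic late products do not build up, and p21 is the cell cycle inhibitor encoded by Cdkn1a.

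Several facts of the whole series bear on the values below. Fah signal was between 100.8 and 114.2 in the 5 livers off NTBC, against 6868 and 7120 in wildtype livers and 181.9 and 233 in Normal 3 and 4, which carry the knockout. The Cdkn1a probe set that ends in _a_at stood at 9.5 and 8.2 in Double knockout livers, at 989.5 to 1861.5 in Single knockout livers and at 14.7 to 51.4 in Normal livers. The other Cdkn1a probe set was at 1827.6 and 2059.6 in Double knockout livers and at 2814 to 3935.7 in Single knockout livers, against 75.2 to 257.7 in Normal livers, and rose in the Double knockout (3.57 ± 0.38, limma adjusted p = 6.65e-05). The probe sets of the deleted gene thus differed, and where they lie relative to the deletion is not stated in the sources used here. All 5 hepatocyte markers tested on the first array type fell off NTBC, with a median change of -0.61 in the Double knockout. Their summed signal was 45541 and 43636 in Double knockout livers and 43641 to 48096 in Single knockout livers. Normal livers had 71349 to 79378. The second array type, with Normal 4 as control, did not show a like fall for most of these markers in the Double knockout. There Alb changed by -0.04, and the probe sets of Apoa1 by -0.18 to -0.07 and of Ttr by -0.14 to -0.02. Cps1 changed by -0.53 and Tat by -2.04. On the first array type macrophage markers summed to 9191 and 9576 in Double knockout livers and to 6695 to 8503 in Single knockout livers. Normal livers had 4444 to 8114, with Normal 4 the highest of these. Of 6 macrophage markers tested, 3 passed as higher in the Double knockout and 2 in the Single knockout. Stellate cell markers summed to 3486 and 3390 in Double knockout livers and to 2485, 2854 and 971 in Single knockout livers 1 to 3. Normal livers had 934 to 1425. Of 6 stellate cell markers tested, 3 passed as higher in the Double knockout and 1 in the Single knockout. Cholangiocyte markers summed to 229 and 333 in Double knockout livers, to 206 to 258 in Single knockout livers and to 71.2 to 154 in Normal livers. The defining markers of striated muscle and brown fat were at the floor (Ucp1 at 2.8 to 7.7 and Tnni3 at 3.9 to 11.6 on every array), although Cidea rose off NTBC. In whole liver, fewer cells of a type and less RNA per cell cannot be told apart, and the part these markers have in the results was not tested.

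Off NTBC, most respiratory chain genes kept within a narrow range, and with all 4 Normal livers as control those that passed were mostly lower. That direction was lost in the Single knockout after quantile normalization (22 probe sets higher, 19 lower) and without the wildtype livers (14 higher, 11 lower), and in the Double knockout with the same-genotype control (2 higher, 1 lower). In Double knockout against Normal livers 32 of 147 member probe sets passed, 4 higher and 28 lower, beside 28.4% of all 15307 probe sets tested (17.7% higher and 10.7% lower). Without Double knockout 1 the member count was 13 and without Double knockout 2 it was 11. In Single knockout against Normal livers 28 of 147 passed, 7 higher and 21 lower, beside 35.5% of all probe sets (20.1% higher and 15.4% lower). Counted by gene, with the brightest probe set standing for each, 23 of 84 passed in the Double knockout (4 higher, 19 lower) and 20 of 84 in the Single knockout (4 higher, 16 lower). Of all 9195 genes tested 29.4% passed in the Double knockout (17.8% higher, 11.5% lower) and 36.2% in the Single knockout (19.7% higher, 16.5% lower). Passing changes of at least 2-fold were rare. They were seen for 3 genes in the Double knockout (Sdha, Ndufb10 and Uqcrq, all lower) and for 4 in the Single knockout (the same 3, lower, and Ndufa5, higher), while 14.2% and 14.5% of all genes passed with such a change. For 72 genes in the Double knockout and 75 genes in the Single knockout the 95% interval of the change lay wholly within 2-fold in either direction. That was 85.7% of the member genes in the Double knockout and 89.3% in the Single knockout, beside 60.6% and 63.1% of all genes tested. Such a share also depends on precision, and member genes had smaller median standard errors (0.17 and 0.15) than all genes tested (0.21 and 0.19).

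**Figure D1:**
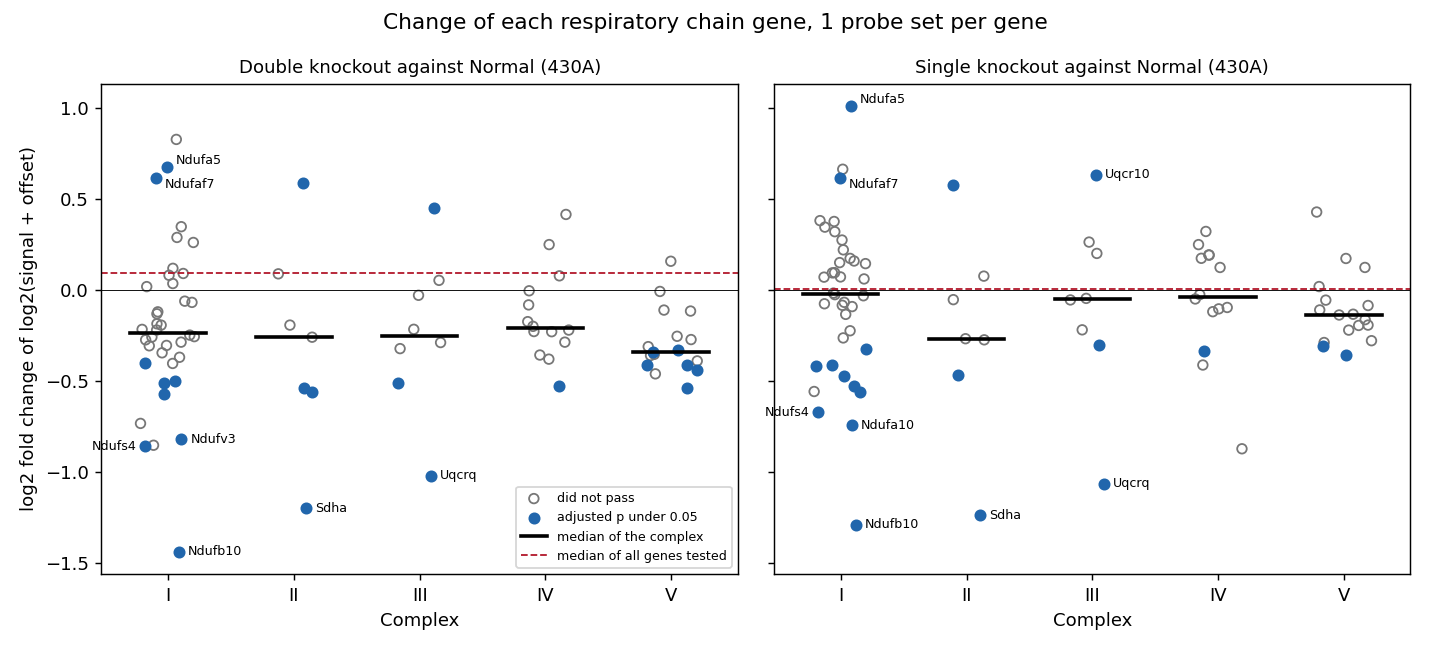
Log2 fold change of 84 respiratory chain genes (1 probe set per gene, y axis) by complex (x axis), for Double knockout against Normal on the left and Single knockout against Normal on the right. Filled points passed at adjusted p under 0.05, black bars are medians of a complex and the dashed line is the median of all genes tested; Sdha, Ndufb10 and Uqcrq stand at -1.02 or below in both panels and nearly all other genes within 1 log2 unit of 0.

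The genes that fell furthest belong to 3 different complexes. Sdha encodes the flavoprotein of succinate dehydrogenase, the catalytic subunit of complex II. Its signal was 2103 and 2059 in Double knockout livers and 2736, 2120.5 and 1426 in Single knockout livers, against 4719, 4876, 5541 and 4118 in Normal livers. No liver off NTBC overlapped a Normal liver, and the change was -1.20 ± 0.22 in the Double knockout (2.29-fold lower, limma adjusted p = 0.00199) and -1.24 ± 0.19 in the Single knockout (2.36-fold lower, adjusted p = 0.0005). The other Sdha probe set, with Normal signals of 2854 to 3240, gave -1.40 ± 0.14 and -1.30 ± 0.13. Ndufb10, an accessory subunit of the membrane arm of complex I, was at 554 and 617 in Double knockout livers and at 548, 584 and 855 in Single knockout livers, against 2002, 1926, 1425 and 1197 in Normal livers. The groups did not overlap, although the Normal livers themselves split into higher wildtype and lower knockout values. The change was -1.44 ± 0.24 in the Double knockout (adjusted p = 0.00112) and -1.29 ± 0.21 in the Single knockout (adjusted p = 0.000687). Uqcrq, a small subunit of complex III, was at 2135 and 2339.5 in Double knockout livers and at 2337, 1866 and 2341 in Single knockout livers, against 5524, 5664, 3716 and 3674 in Normal livers. Its livers off NTBC lay in a tight band below all Normal livers, with changes of -1.02 ± 0.20 (adjusted p = 0.00321) and -1.06 ± 0.18 (adjusted p = 0.000808). That probe set ends in _s_at, a suffix for probes that can match more than 1 transcript, and 2 other Uqcrq probe sets tested, dim at 83.0 to 182.2, did not pass.

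Other members rose. Ndufa5, an accessory subunit of the arm of complex I that holds the electron path, was at 1678 and 1431 in Double knockout livers and at 1793, 1774 and 2349.6 in Single knockout livers, against 1192, 1186, 903 and 678 in Normal livers. All livers off NTBC were above all Normal livers, with a change of 0.68 ± 0.23 in the Double knockout (1.60-fold, adjusted p = 0.0459) and 1.01 ± 0.20 in the Single knockout (2.02-fold, adjusted p = 0.00248). The other Ndufa5 probe set passed in the Single knockout (0.76 ± 0.18) and not in the Double knockout (0.34 ± 0.21). Uqcr10, a small membrane subunit of complex III, was at 2408 and 2556 in Double knockout livers and at 2764, 2599 and 3094 in Single knockout livers, against 1881, 1852, 1729 and 1780.1 in Normal livers. The 4 Normal livers were close together and below the others, and the change was 0.45 ± 0.12 in the Double knockout (adjusted p = 0.0165) and 0.63 ± 0.11 in the Single knockout (adjusted p = 0.000882). All 3 Uqcr10 probe sets passed in the Single knockout. In the Double knockout 1 of 3 passed, with changes of 0.37 to 0.45 over the 3. By their brightest probe sets Uqcrq and Uqcr10, subunits of the same complex, thus moved in opposite directions in both knockouts. Sdhaf4, an assembly factor that binds free Sdha protein before complex II is put together, was at 1470.0 and 1561 in Double knockout livers and at 1623, 1312 and 1604 in Single knockout livers, against 1123, 1005, 966 and 935 in Normal livers. It rose without overlap, by 0.59 ± 0.14 (adjusted p = 0.0103) and 0.58 ± 0.13 (adjusted p = 0.00427), where Sdha fell. Ndufaf7, a methyltransferase that modifies a complex I subunit during assembly, rose by 0.62 ± 0.20 (adjusted p = 0.0412) and 0.61 ± 0.18 (adjusted p = 0.0201).

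**Figure D2:**
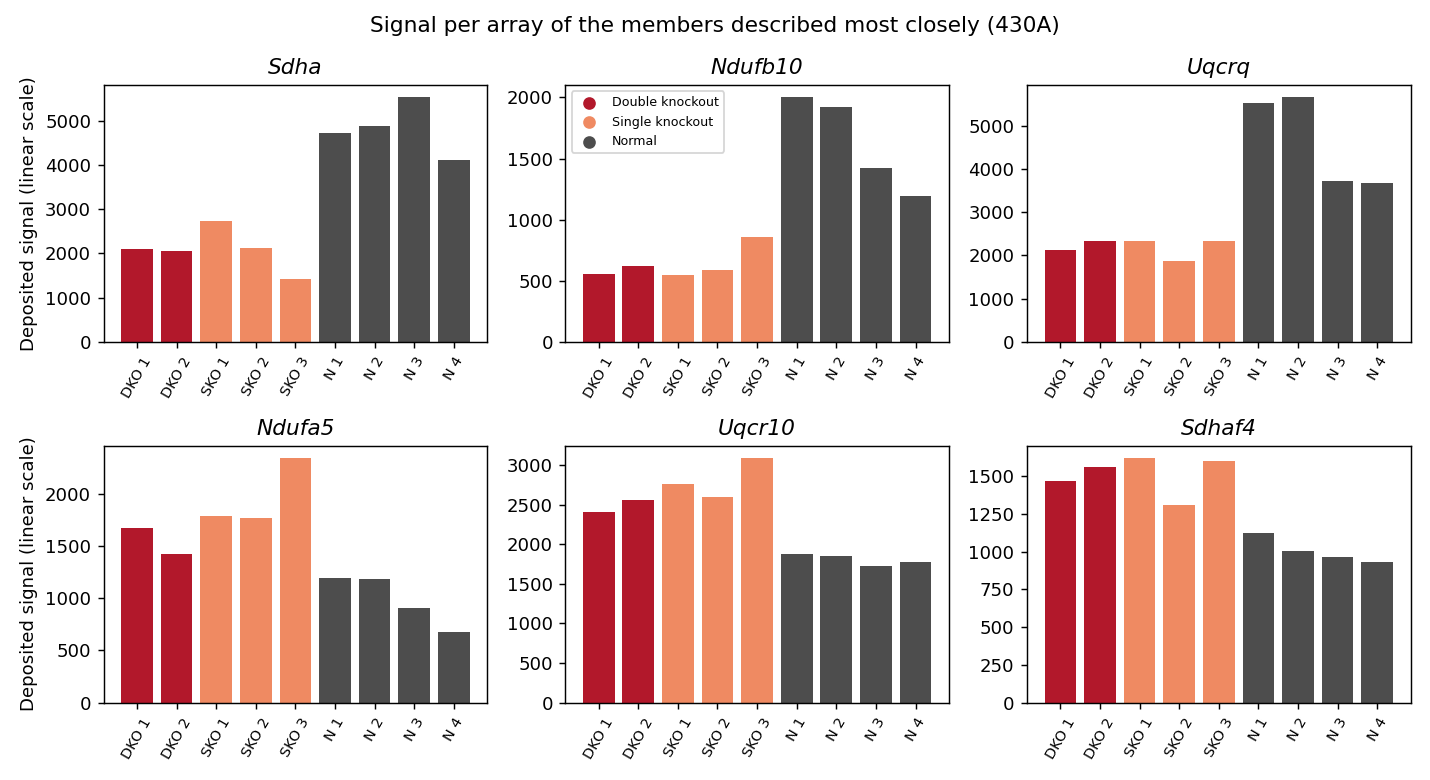
Deposited signal on a linear scale (y axis, from 0) of 6 members on each of the 9 arrays of 430A (x axis: DKO, Double knockout; SKO, Single knockout; N, Normal), with 1 bar per liver. Sdha, Ndufb10 and Uqcrq are lower in all 5 livers off NTBC than in all 4 Normal livers, and Ndufa5, Uqcr10 and Sdhaf4 are higher.

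The promoters of these members are shown because genes of the chain are often bound by NRF1 or by ETS factors such as GABP, both long known as regulators of nuclear respiratory genes. RefSeq starts on GRCm38.p6 were found for 73 of the 87 genes, with 78 starts, and Uqcrq had none in the table used. The 250 bases before each start were searched on both strands for the NRF1 core (GCGC, any 2 bases, GCGC) and the ETS core CCGGAAG. The NRF1 core was present in 14 of 78 member windows (17.9%) and in 4.98% of all 32851 windows, the ETS core in 14 (17.9%) and in 6.91%, and either in 32.1% and 11.2%; the motifs overlapped in 0 member windows. Windows are printed 5′ to 3′ on the gene's strand, ending at the base before the start, with NRF1 cores in capitals. Sdha lies on the minus strand at chr13:74350241-74350490, Ndufb10 on the minus strand at chr17:24724424-24724673, Ndufa5 (the upstream of 2 starts) on the minus strand at chr6:24527691-24527940 and Uqcr10 on the minus strand at chr11:4704345-4704594.
Sdha: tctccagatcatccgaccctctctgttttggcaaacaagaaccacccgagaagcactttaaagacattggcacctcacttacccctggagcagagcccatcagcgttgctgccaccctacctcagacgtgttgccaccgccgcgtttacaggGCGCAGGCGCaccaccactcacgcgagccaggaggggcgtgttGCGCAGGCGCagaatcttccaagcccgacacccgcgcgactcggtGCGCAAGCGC
Ndufb10: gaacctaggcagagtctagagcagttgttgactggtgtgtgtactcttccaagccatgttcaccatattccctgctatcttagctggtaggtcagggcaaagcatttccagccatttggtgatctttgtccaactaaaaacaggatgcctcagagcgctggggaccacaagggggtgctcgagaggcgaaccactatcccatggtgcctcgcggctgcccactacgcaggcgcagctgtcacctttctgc
Ndufa5: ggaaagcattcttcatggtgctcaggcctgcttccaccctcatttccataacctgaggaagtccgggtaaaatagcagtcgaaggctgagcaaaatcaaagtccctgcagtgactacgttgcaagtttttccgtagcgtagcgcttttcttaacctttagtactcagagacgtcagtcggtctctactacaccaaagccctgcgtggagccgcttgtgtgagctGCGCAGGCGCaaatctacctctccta
Uqcr10: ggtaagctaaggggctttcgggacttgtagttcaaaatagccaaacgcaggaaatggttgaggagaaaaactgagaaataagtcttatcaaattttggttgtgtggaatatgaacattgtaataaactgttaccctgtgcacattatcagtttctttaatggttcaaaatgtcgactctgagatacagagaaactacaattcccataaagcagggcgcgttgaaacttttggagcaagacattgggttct

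Sdha, which fell, held 3 NRF1 cores, which began 98, 55 and 10 bases before the start. Ndufa5, which rose, held 1 core that began 26 bases before its upstream start. The windows of Ndufb10, which fell, and of Uqcr10, which rose, held neither motif in these letters. The NRF1 core stood in 3 of 15 windows of genes that fell in the Double knockout, in 1 of 11 of those that fell in the Single knockout and in 9 of 57 windows of genes that passed in neither comparison with Normal livers. The 4 genes that rose in either knockout had 5 windows, and 2 of these held the NRF1 core. Both are of Ndufa5, overlap and share the same core. The ETS core stood in 1 of 15, 1 of 11, 13 of 57 and 0 of 5 windows of these groups of genes, in the same order. These matches are letters only and say nothing of binding.

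In complex I, 9 of 38 genes passed in the Double knockout (2 higher, 7 lower) and 11 in the Single knockout (2 higher, 9 lower). The median change of the complex was -0.23 in the Double knockout and -0.02 in the Single knockout, beside 0.09 and 0.00 over all genes tested. Ndufs4, a subunit of the peripheral arm whose loss causes Leigh syndrome in people, was at 623 and 698 in Double knockout livers and at 735, 725 and 802 in Single knockout livers, against 1337, 1355, 1104 and 1051 in Normal livers. It was lower in each liver off NTBC than in any Normal liver, by -0.86 ± 0.15 (adjusted p = 0.00176) and -0.67 ± 0.13 (adjusted p = 0.00265). Of 3 Ndufs4 probe sets tested only this 1 passed in each knockout, and the smallest changes were -0.32 and -0.37. Against Normal 4 on 430 2.0 the same probe set changed by -0.82 ± 0.23 in the Double knockout and did not pass. The other Ndufs4 probe sets there, which did not pass either, changed by -0.64, -0.56 and 1.19, the last dim. Ndufv3, an accessory subunit near the site that binds NADH, changed by -0.82 ± 0.16 (adjusted p = 0.00294) and -0.56 ± 0.14 (adjusted p = 0.00951). Ndufv1, the core subunit that binds NADH and was chosen here after its values were seen, fell by all 3 of its probe sets in both knockouts, with changes of -0.56 to -0.50 in the Double knockout and of -0.54 to -0.52 in the Single knockout. The signal of Ndufa10, an accessory subunit of the membrane arm, was 1441 and 1376 in Double knockout livers and 1337, 1222 and 2146 in Single knockout livers, against 2968, 3408, 2737 and 1527 in Normal livers. Normal 4 lay below Single knockout 3, so the Single knockout and Normal livers overlapped, with changes of -0.85 ± 0.30 (adjusted p = 0.0555) in the Double knockout and -0.74 ± 0.27 (adjusted p = 0.0489) in the Single knockout. Of the 6 core subunits tested, 1 fell in the Double knockout and 2 in the Single knockout, with none higher. Of the 27 accessory subunits 5 fell and 1 rose in the Double knockout, and 6 fell and 1 rose in the Single knockout.

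Complex II has 4 subunits, all encoded in the nucleus. Beside Sdha, the iron-sulfur subunit Sdhb was at 3659 and 3202 in Double knockout livers and at 3928, 3640.2 and 4949 in Single knockout livers, against 5477, 5979, 4769.6 and 3939.9 in Normal livers. It passed in the Double knockout (-0.54 ± 0.18, adjusted p = 0.0435), where the groups were apart, and not in the Single knockout (-0.27 ± 0.16, adjusted p = 0.215), where they overlapped. Sdhc, a membrane anchor, was at 2799 and 2282 in Double knockout livers and at 2497, 2729.7 and 2883 in Single knockout livers, against 3540.0, 4067, 4095 and 3311 in Normal livers. It fell without overlap in both, by -0.56 ± 0.14 (adjusted p = 0.0118) and -0.47 ± 0.12 (adjusted p = 0.0124). The other Sdhc probe set passed in the Double knockout (-0.52) and not in the Single knockout (-0.38). Sdhd, the other anchor, did not pass (-0.19 ± 0.20 and -0.05 ± 0.18), and Normal 4, at 2509.9, was its lowest liver. The mean log2 level of the 4 subunits stood 0.56 and 0.68 below the Normal mean in Double knockout livers and 0.50, 0.50 and 0.52 below it in Single knockout livers, while Normal 4 was at -0.31 and Normal 1 to 3 lay between 0.07 and 0.12. In no other complex did this mean place all 5 livers off NTBC below all 4 Normal livers. It covers 4 genes, of which Sdha changed most. Sdhb in the Single knockout and Sdhd in both knockouts did not show such a separation, and the mean without Sdha was not computed.

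Complex III had 3 of 8 genes that passed in each knockout, with 1 higher (Uqcr10) and 2 lower (Uqcrq and Uqcrb). Uqcrb, a bright probe set for a small matrix-side subunit, was at 8428 and 8669.5 in Double knockout livers and at 10109, 8619 and 11024 in Single knockout livers, against 12250.4, 13096, 12046 and 11313 in Normal livers. Its changes were -0.51 ± 0.12 (adjusted p = 0.00708) and -0.30 ± 0.10 (adjusted p = 0.0389), and after quantile normalization they were 0.07 and 0.12. In complex IV, cytochrome c oxidase, 1 of 14 genes passed in each knockout. This was Cox6c, at 4991 and 5089 in Double knockout livers and at 5591, 5460.2 and 6218 in Single knockout livers, against 7643, 7898, 6916 and 6674 in Normal livers, with changes of -0.53 ± 0.11 (adjusted p = 0.00514) and -0.34 ± 0.10 (adjusted p = 0.0211).

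Several complex IV genes come as isoforms, 1 general or liver form and 1 of muscle, lung or testis. The general forms were bright and stayed within a narrow range: Cox4i1 changed by -0.23 ± 0.14 and -0.05 ± 0.13 in the Double and Single knockout, Cox6a1 by -0.36 ± 0.13 and -0.10 ± 0.11, and Cox6b1 by -0.08 ± 0.13 and 0.17 ± 0.12. Cox7a2 (0.08 ± 0.16 and 0.25 ± 0.14), Cox8a (-0.22 ± 0.18 and 0.19 ± 0.16) and Ndufa4 (-0.29 ± 0.17 and 0.12 ± 0.15) did not pass either. Of the restricted forms, the lung form Cox4i2 (89.4 to 190.6 over all 9 livers) and the heart and muscle form Cox6a2 (89.6 to 208.2) were dim and did not pass. Cox7a1 (5.6 to 52.1) and Cox8b (8.3 to 15.5) were below the filter. The testis form Cox6b2 was at 216 and 652 in Double knockout livers and at 275, 263 and 164 in Single knockout livers, against 725, 757, 308 and 192 in Normal livers. Its values spread over 2-fold within the Double knockout and Normal groups, the wildtype livers were highest, and neither comparison passed. Cox7a2l, which helps to join complexes III and IV into supercomplexes, changed by 0.25 ± 0.14 and 0.32 ± 0.12 without passing. The 430A annotation used here held no single-symbol probe set for Ndufa4l2.

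Complex V had 6 of 17 genes lower in the Double knockout and 2 of 17 lower in the Single knockout, with none higher. Atp5b, the catalytic beta subunit, was at 5871 and 5825 in Double knockout livers and at 6723, 6036 and 6514 in Single knockout livers, against 8608, 8247, 7557 and 7437 in Normal livers. It lay below all Normal livers in both knockouts, by -0.44 ± 0.11 (adjusted p = 0.00968) and -0.31 ± 0.09 (adjusted p = 0.0246). Subunit c, which forms the rotating ring, has 3 genes with the same mature protein. Atp5g1 (-0.54 ± 0.16), Atp5g2 (-0.41 ± 0.14) and Atp5g3 (-0.41 ± 0.10) all fell in the Double knockout, and Atp5g3 alone of them passed in the Single knockout (-0.36 ± 0.09, adjusted p = 0.00857, against adjusted p = 0.152 for Atp5g1 and 0.091 for Atp5g2). The difference between the knockouts did not pass for any of the 3. Atp5a1 and Atp5c1, subunits of the catalytic head named after their values were seen, passed in the Double knockout (-0.34 ± 0.11 and -0.33 ± 0.11). After quantile normalization Atp5b changed by 0.03 and 0.01 and Atp5g3 by 0.16 and 0.01, without passing.

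A direct comparison of Double with Single knockout livers asked whether loss of p21 altered the chain. None of the 147 member probe sets passed with limma, 4 of 147 had an unadjusted p under 0.05, and 6 of all 15307 probe sets passed (0.0392%, and 8.06% at an unadjusted p under 0.05). The median change of members was -0.17, beside 0.06 over all probe sets, and 69 of 84 member genes were below 0, beside 3671 of all 9195 genes, among them all 17 of complex V. For 82 of 84 genes (97.6%) the 95% interval of the difference lay within 2-fold, beside 78.2% of all genes tested. Member genes also had a smaller median standard error of the difference (0.17) than all genes tested (0.22). The difference was 0.04 (95% interval -0.46 to 0.54) for Sdha, -0.15 (-0.70 to 0.40) for Ndufb10, 0.04 (-0.42 to 0.51) for Uqcrq and -0.33 (-0.86 to 0.20) for Ndufa5. Without Single knockout 3, the liver with the lowest stellate marker sum, the median was -0.10.

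The small general decline was read array by array, since the livers of 1 group differed. Relative to the Normal mean, the mean log2 level of the 71 subunit genes tested was -0.29 and -0.27 in Double knockout livers and -0.11, -0.21 and 0.04 in Single knockout livers. Within the Normal group it was 0.16 and 0.15 in the wildtype livers, -0.04 in Normal 3 and -0.27 in Normal 4. The Fah, p21 knockout liver kept on NTBC thus stood level with the Double knockout livers off it. Normal 4 was the lowest Normal liver for 66 of 84 member genes (78.6%, beside 20.6% of all genes tested), and Single knockout 3 was the highest of its group for 63 of 84 (75%, beside 32.5%). In complexes I, III, IV and V Single knockout 3 was the highest of its group and the wildtype livers were the highest of the Normal livers. In the complex II mean Single knockout 3, at -0.52, was no higher than the others of its group. Its subunits differed in this, since Single knockout 3 was the lowest of its group for Sdha and the highest for Sdhb and Sdhc.

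**Figure D3:**
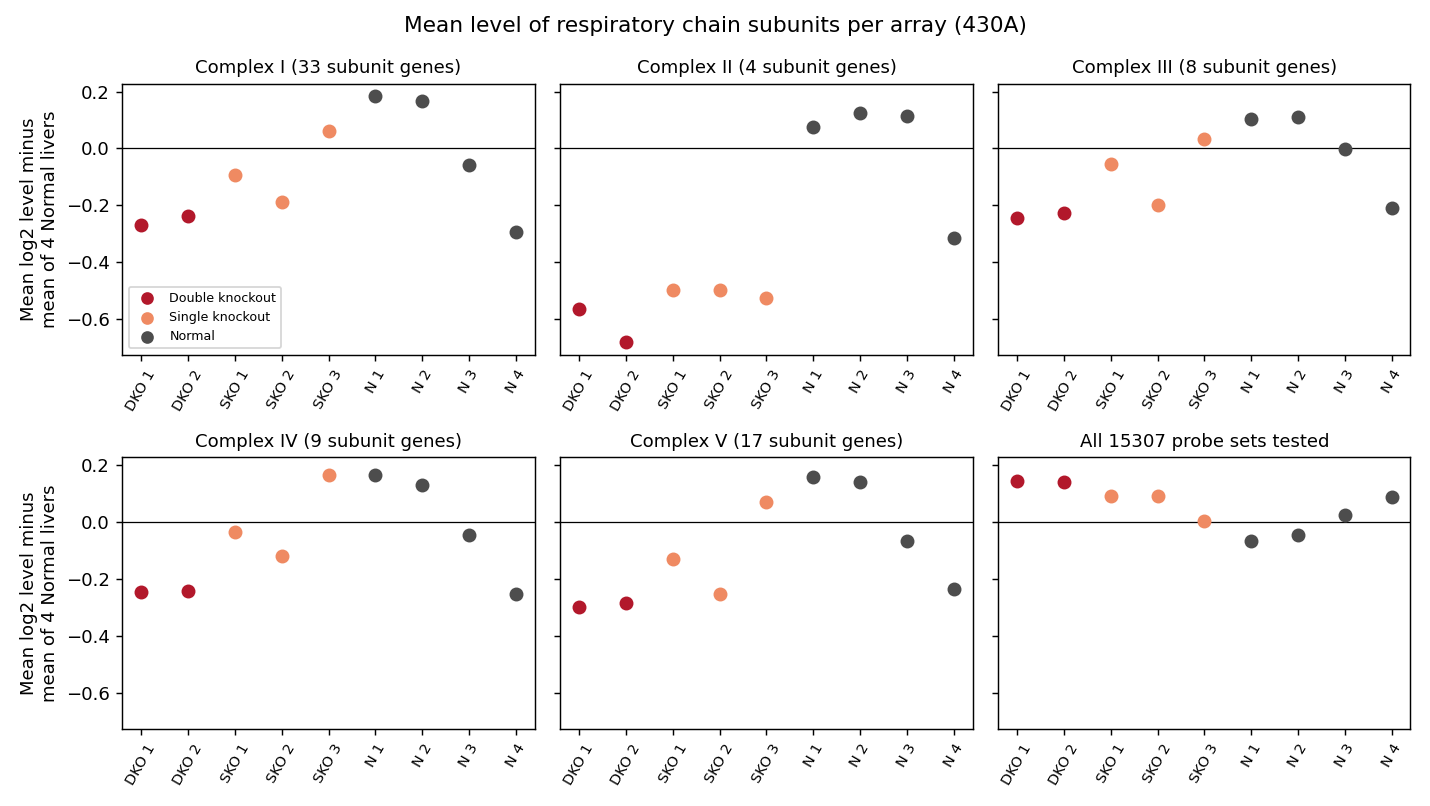
Mean log2 level of the subunit genes of each complex on each array minus the mean of the 4 Normal livers (y axis, log2 units), by liver (x axis: DKO, Double knockout; SKO, Single knockout; N, Normal), with all 15307 probe sets tested in the last panel. In complexes I, III, IV and V Normal 4 is close to the Double knockout livers, and in complex II all 5 livers off NTBC lie at -0.50 or below with Normal 4 at -0.31.

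With the 1 mouse of the same genotype on NTBC as control, 3 of 147 member probe sets passed in the Double knockout against Normal 4, beside 11.9% of all probe sets, and 8 of 147 in the Single knockout against Normal 3, beside 16.8%. Those 3 were 1 probe set each of Sdha (-1.29 ± 0.23), Ndufa5 (1.18 ± 0.24) and Ndufb1 (1.77 ± 0.27), the last an accessory complex I subunit with a signal of 67.7 in Normal 4 and 161.1 to 186.6 in the other Normal livers. On 430 2.0 the same Ndufb1 probe set was at 316.9 and 294.1 in Double knockout livers against 283.3 in Normal 4 (0.11 ± 0.29, adjusted p = 0.859), with neither a low Normal 4 nor a call. In the Single knockout both probe sets of Sdha and of Ndufa5 and 1 each of Ndufb10, Uqcrq, Uqcr10 and Ndufv1 passed. The brighter Sdha probe set (-0.98 ± 0.34, adjusted p = 0.106), Ndufb10 (-1.02 ± 0.29, adjusted p = 0.0612) and Uqcrq (-0.71 ± 0.21, adjusted p = 0.0678) missed the threshold in the Double knockout. The median change of the member probe sets was -0.01 in the Double knockout and 0.01 in the Single knockout with these controls, against -0.25 and -0.07 with all 4 Normal livers.

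**Figure D4:**
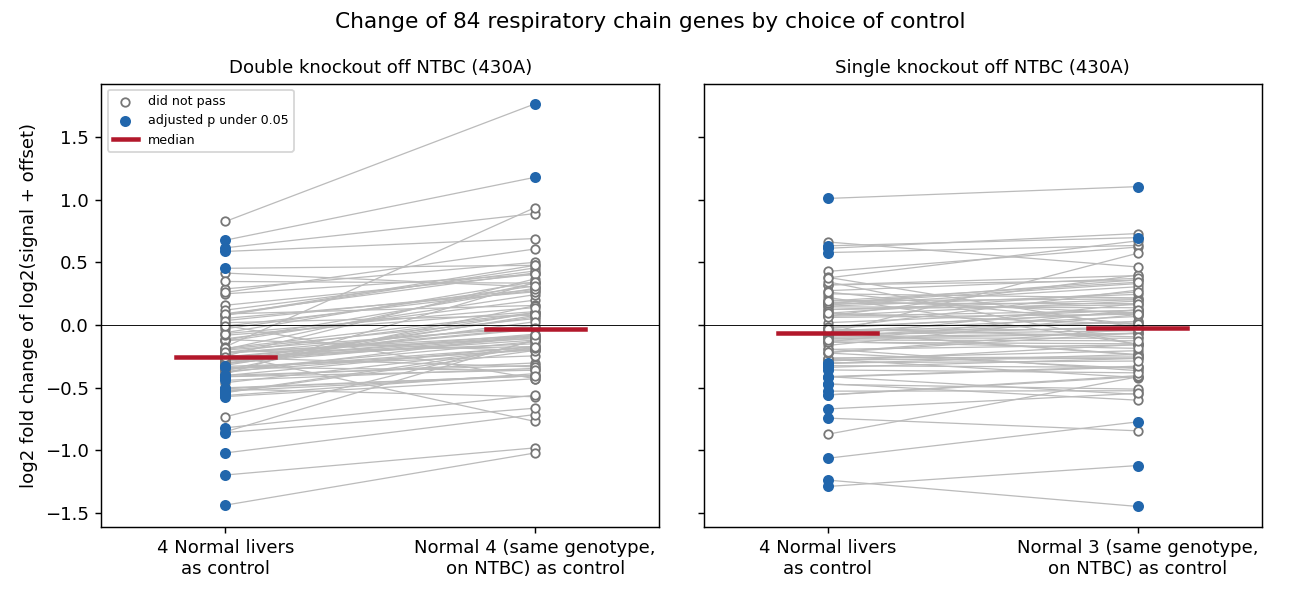
Log2 fold change (y axis) of 84 respiratory chain genes in Double knockout livers (left) and Single knockout livers (right), with all 4 Normal livers or with the 1 mouse of the same genotype on NTBC as control (x axis), 1 grey line per gene and red bars for medians. Filled points passed; the median over genes in the left panel is -0.26 with all Normal livers and -0.03 with Normal 4 alone.

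The changes were also read by level of signal, a split chosen after the values were seen. The part of signal level in the decline was not tested. Among probe sets with a mean log2 of 12 or more, the 27 members had a median change of -0.31 in the Double knockout and -0.10 in the Single knockout, and the 367 other probe sets had -0.38 and -0.27. Between 11 and 12 the 56 members had -0.23 and -0.05, and the 582 others had -0.14 and -0.02. Between 10 and 11 the 35 members had -0.26 and 0.02, and the 1184 others had 0.02 and 0.06. Between 8 and 10 the 17 members had -0.17 and -0.27, and the 5470 others had 0.11 and 0.08. Below 8 the 12 members had 0.07 and -0.10, and the 7557 others had 0.16 and -0.001. From the dimmest to the brightest level, the member medians in the Double knockout fell from 0.07 to -0.31, apart from the step from -0.26 to -0.23. In the Single knockout they kept no such order. After quantile normalization, which gives all arrays the same distribution, the median of all members was -0.03 in the Double knockout and 0.08 in the Single knockout. For the 17 members between 8 and 10 it was -0.33 and -0.35, the lowest of any level. Below 8 it was -0.15 and -0.16, and between 10 and 11 it was -0.19 and 0.04. Between 11 and 12 it was -0.01 and 0.10, and at 12 or more it was 0.08 and 0.20. The calls over all members then split into 9 higher and 18 lower in the Double knockout. In the Single knockout they split into 22 higher and 19 lower. Sdha, Ndufb10 and Uqcrq were lower, and passed, under this setting too.

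The 2 further Double knockout livers on 430 2.0 were set against Normal 4 on that array, with 1 residual degree of freedom, and this control is taken to be the mouse already used on 430A. Of 171 member probe sets 5 passed, 1 higher and 4 lower, beside 11.5% of 26925 (7.71% higher, 3.8% lower). Sdha was at 2775.8 and 2646.4 in Double knockout livers against 6579.5 in Normal 4 by the _s_at probe set (-1.28 ± 0.22, adjusted p = 0.0128). The brighter Sdha probe set, at 5921.2 and 4323.3 in Double knockout livers against 9136 in Normal 4, did not pass (-0.85 ± 0.27, adjusted p = 0.0904). Ndufb10 was at 1801.4 and 2212.6 against 5262.3 (-1.40 ± 0.24, adjusted p = 0.0128). Also lower were Atp5md, a small subunit of complex V (-1.13 ± 0.22), and 1 of 6 probe sets of the complex I core subunit Ndufs8 (-2.16 ± 0.35), whose other 5 lay between -0.48 and -0.13 and did not pass. Higher was 1 dim probe set of Cox5b (1.65 ± 0.39), while its 4 others tested did not pass. Uqcrq (-0.77 ± 0.23), Ndufa5 (0.61 ± 0.25), Uqcr10 (0.49 ± 0.26) and Sdhaf4 (0.32 ± 0.23) did not pass there.

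Among the assembly and inhibitor genes outside the members was Atpif1, whose protein IF1 stops complex V from running backwards and burning ATP. Its signal was 1024 and 1236 in Double knockout livers and 1201, 1168 and 1189 in Single knockout livers, against 198.5, 180.3, 206 and 213 in Normal livers. The 5 livers off NTBC lay far above the 4 Normal livers, by 2.44 ± 0.14 (5.43-fold, adjusted p = 1.54e-06) and 2.52 ± 0.13 (5.72-fold, adjusted p = 2.58e-07). On 430 2.0 it was at 3973.6 and 4823.5 in Double knockout livers against 1256.9 in Normal 4 (1.80 ± 0.24, adjusted p = 0.00466). Of the 30 other assembly factors, cytochrome c genes and inhibitors tested, Atpif1 among them, 4 rose and 5 fell in the Double knockout. In the Single knockout 4 rose and 5 fell too, and the medians were -0.08 and 0.01. This was 30% in each knockout, beside 29.4% of all genes tested in the Double knockout and 36.2% in the Single knockout. Sco2, which delivers copper to complex IV, fell to 599 and 436 in Double knockout livers and 614, 491 and 557 in Single knockout livers, against 1591, 1775, 1548 and 1206 in Normal livers (-1.55 ± 0.19 and -1.44 ± 0.17). Coa3, another complex IV assembly factor, fell as well (-0.71 ± 0.23 and -1.03 ± 0.21), and Oxa1l, the insertase of the inner membrane, passed in the Double knockout alone (-0.88 ± 0.17, and -0.40 ± 0.15 in the Single knockout). Named after their values were seen, the heme factor Surf1 fell (-0.79 ± 0.14 and -0.80 ± 0.12), while the complex V factor Tmem70 (0.86 ± 0.14 and 0.84 ± 0.13) and the copper chaperone Cox17 (0.67 ± 0.22 and 0.86 ± 0.19) rose. The cytochrome c gene Cycs (0.04 ± 0.16 and 0.13 ± 0.14) and Cyc1 of complex III (-0.15 ± 0.22 and 0.02 ± 0.20) did not pass. ND5, the 1 subunit encoded in mitochondrial DNA that had a named probe set, was at 10192 and 9182 in Double knockout livers and at 11408, 10098 and 9102 in Single knockout livers, against 12261, 15478, 13712 and 15632 in Normal livers, and fell by -0.55 ± 0.13 (adjusted p = 0.00878) and -0.48 ± 0.12 (adjusted p = 0.00716). On 430 2.0 ND5 was at 27109.4 and 24731.8 in Double knockout livers against 25889.7 in Normal 4, a change of 0.00020 ± 0.23 that did not pass.

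Coenzyme Q genes moved in both directions. Of 9 tested, 1 rose and 3 fell in the Double knockout, and 3 rose and 2 fell in the Single knockout. These were 44.4% and 55.6%, beside 29.4% and 36.2% of all genes tested. Coq8a, an atypical kinase of the coenzyme Q complex, was at 602 and 809 in Double knockout livers and at 921, 1028 and 807 in Single knockout livers, against 2130.4, 2385, 2394 and 1709 in Normal livers (-1.60 ± 0.18 and -1.22 ± 0.16). Its paralog Coq8b went the other way, with 811 and 761 in Double knockout livers and 1086, 934 and 955 in Single knockout livers, against 335, 339.8, 430.0 and 437 in Normal livers (1.02 ± 0.16 and 1.35 ± 0.14). The groups were apart for both genes, and both changes were also called on 430 2.0, at -0.95 ± 0.23 and 1.22 ± 0.25 against Normal 4. Coq10a, a coenzyme Q binding protein, fell (-1.73 ± 0.37 and -1.06 ± 0.33).

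Among 14 carriers and other electron entry genes, 1 rose and 3 fell in the Double knockout. In the Single knockout 2 rose and 2 fell. This was 28.6% in each knockout, beside 29.4% of all genes tested in the Double knockout and 36.2% in the Single knockout. Prodh, the proline dehydrogenase that feeds electrons to coenzyme Q, fell most (-2.61 ± 0.21 and -2.92 ± 0.19), and Etfa, a subunit of the electron transfer flavoprotein of fatty acid oxidation, fell too (-0.69 ± 0.12 and -0.51 ± 0.10). Slc25a4, an adenine nucleotide carrier typical of heart and muscle, rose (1.30 ± 0.25 and 0.80 ± 0.22). Of 19 genes of the tricarboxylic acid cycle and pyruvate dehydrogenase, 3 rose and 2 fell in the Double knockout (26.3%). In the Single knockout 6 rose and 3 fell (47.4%). The kinases that switch pyruvate dehydrogenase off were split: Pdk4 (4.50 ± 0.21 and 5.12 ± 0.19) and Pdk3 (2.83 ± 0.42 and 3.30 ± 0.37) rose and Pdk1 (-2.44 ± 0.32 and -2.36 ± 0.28) fell. Mdh2, the malate dehydrogenase of the cycle, had 6358 and 5631 in Double knockout livers and 6445, 6087 and 7540.1 in Single knockout livers, against 3426, 3378, 3412 and 2935 in Normal livers (0.86 ± 0.13 and 1.02 ± 0.11), while Sdha, which acts 2 steps earlier in the same cycle, fell.

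The shares of the lists below are set beside 29.4% of all genes tested in the Double knockout and 36.2% in the Single knockout. Of 16 regulators of mitochondrial biogenesis, 2 rose and 1 fell in the Double knockout (18.75%), and 3 rose and 1 fell in the Single knockout (25%). The gene that fell was Gabpa, the DNA-binding subunit of the ETS factor GABP (-0.65 ± 0.21, adjusted p = 0.0395, and -0.81 ± 0.19, adjusted p = 0.00589). Ppargc1a, which encodes the coactivator PGC-1alpha, was at 124 and 114 in Double knockout livers and at 145, 136 and 81.7 in Single knockout livers, against 124, 128, 130.4 and 126 in Normal livers, and did not pass. Mitochondrial ribosomal protein genes were split, with 3 higher and 5 lower of 74 in the Double knockout (10.8%). In the Single knockout 13 were higher and 9 lower (29.7%). Mrpl15 rose (1.02 ± 0.17 and 1.15 ± 0.15), and Mrps24 fell (-1.02 ± 0.20 and -0.99 ± 0.18). Of 21 import genes 6 rose in the Double knockout (28.6%), and 4 rose and 2 fell in the Single knockout (28.6%). Tomm20, a receptor of the outer membrane (0.94 ± 0.21 and 1.03 ± 0.18), and Timm17a, part of an inner membrane channel (0.98 ± 0.18 and 1.16 ± 0.15), rose in both. Of 16 chaperones, proteases and oxidant defence genes 3 fell in the Double knockout (18.75%). In the Single knockout 1 rose and 4 fell (31.25%). Txnrd2, the mitochondrial thioredoxin reductase (-1.25 ± 0.17 and -1.55 ± 0.15), was lower in both. So was Pink1, a kinase of mitochondrial quality control (-0.79 ± 0.17 and -0.63 ± 0.15). On 430 2.0, with Normal 4 as control, the same probe sets of other genes named here passed for Sco2 (-1.39 ± 0.23), Coq10a (-1.69 ± 0.33), Prodh (-2.66 ± 0.27), Slc25a4 (1.54 ± 0.26), Pdk4 (5.18 ± 0.24), Pdk3 (3.92 ± 0.44), Pdk1 (-3.03 ± 0.32), Mdh2 (0.91 ± 0.22) and Txnrd2 (-1.38 ± 0.32). They did not pass for Coa3 (-0.60 ± 0.22), Oxa1l (-0.25 ± 0.26), Surf1 (-0.95 ± 0.25), Tmem70 (0.54 ± 0.25), Cox17 (0.56 ± 0.28), Etfa (-0.55 ± 0.24), Gabpa (-0.52 ± 0.24) and Pink1 (-0.95 ± 0.26). The ribosomal protein and import genes were not examined on that array. Mdh2, Cycs, Cyc1 and Ppargc1a were chosen for description after their values were seen. Unless another value is given, the genes outside the members named as rising or falling in both knockouts had an adjusted p of at most 0.0426.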

How the data were processed

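Liver RNA was measured on Affymetrix mouse arrays, 9 on 430A and 3 on 430 2.0. The deposited values are MAS5 intensities on a linear scale, for which the submitters' processing notes name MAS5 and, as the authors' software, GCOS 1.4.0.036. No read depth applies, and the number of arrays limits the precision. Probe sets were named through GEO's platform annotation, and 8 with several symbols were left out. Signals were taken as log2(signal + offset), the offset being the 10th percentile of the table (9.9 on 430A, 3.8 on 430 2.0), and a probe set was kept where 2 or more arrays had it at or above their 40th percentile. limma 3.58.1 (R 4.3.3), with a mean trend and Benjamini-Hochberg adjustment over all 15307 probe sets kept (26925 on 430 2.0), gave every change, standard error, interval and adjusted p, with the 3 groups of 430A in 1 fit. The steps were tested on simulated data. A gene is represented by its brightest probe set. Genes named are, per complex and comparison, up to 3 that passed with the largest rises and 3 with the largest falls, all complex II subunits and isoform sets, and up to 3 per list of other genes; the others are said to be chosen after their values were seen. Members and lists were chosen with earlier results of these data known. Promoter windows are RefSeq's. Alternatives were other filters, offsets, scalings, controls and left-out livers. The same-genotype control, 1 liver, is assumed to vary like the other groups.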

Additional observations from a re-analysis of the deposited data

Results flagged for a closer look

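Of 75 genes checked for a liver far from the rest of its group, 4 had one in the Normal group, and chance marks about 1 in 20 groups. Cd68, a macrophage marker, stood at 262.4 in Normal 4, with Normal 1 to 3 between 186.5 and 190.9. Cidea stood at 26.2 in Normal 2, with the rest between 6.5 and 8.5. Pdk3 stood at 12.6 in Normal 4, with the rest between 6.1 and 6.4. Polrmt, the mitochondrial RNA polymerase, stood at 620.5 in Normal 3, with the rest between 469.2 and 490.5. Cdkn1a differed between the knockouts, by -6.13 on the log2 scale in Double against Single knockout livers for the probe set that ends in _a_at, while its other probe set differed by -0.82 (limma adjusted p = 0.64) and did not pass.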

How the results depend on the processing

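Over 549 combinations of a member gene named and a setting, the call and direction were kept in 453 in the Double knockout and 477 in the Single knockout, both against Normal livers. Sdha, Ndufb10, Uqcrq, Ndufa5 and Uqcr10 passed in 19 of 19 alternatives in the Single knockout, and Sdha, Ndufb10, Uqcrq, Ndufs4 and Ndufv3 in 18 of 19 in the Double knockout. Other calls were lost in most of the 19: in the Double knockout Ndufa5 passed in 9, Ndufaf7 and Gabpa in 8 and Sdhb and Atp5g2 in 7, and in the Single knockout Cox6c and Atp5b passed in 9, Ndufa10 in 6 and Uqcrb in 5. After quantile normalization the sign turned for 30 of 84 member genes in the Double knockout and 23 of 84 in the Single knockout. Among named genes called under either setting it turned in the Double knockout for Uqcrb (0.067), Atp5g3 (0.16), Atp5b (0.026), Cox6b1 (0.42) and the hepatocyte marker Ttr (0.023), and in the Single knockout for Uqcrb (0.12), Atp5g3 (0.010), Atp5b (0.0054) and Cox6a1 (0.28); the cause was not tested.

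Member calls in the Double knockout numbered 21 without limma's trend, 17 without both wildtype livers, 3 with the same-genotype control and 19 with a replicate block; in the Single knockout they numbered 8 with the same-genotype control and 25 with the replicate block. Whether the numbers in the titles pair the livers is not stated. Deviations of same-numbered livers from their group means correlated at -0.28 to 0.07. This cannot decide it, since each Normal liver is of another condition and the Double knockout livers deviate by equal and opposite amounts. All probe sets called with the same-genotype control were 1824 in the Double knockout and 2572 in the Single knockout, where the control is 1 liver. The member median in the Double knockout was -0.031 after quantile normalization, -0.49 after median scaling, -0.0091 with the same-genotype control and -0.085 without wildtype livers, and in the Single knockout it was 0.084 after quantile normalization and 0.12 without wildtype livers. Between Double and Single knockout it was -0.34 after median scaling, and 0 members passed in every alternative run. All probe sets called there were 1 with a filter at the 60th percentile, with no offset, without wildtype livers or with the block, 14 with an offset at the 25th percentile, 3 with median scaling, 13 without the trend and 2 with the same-genotype control.

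Leaving out 1 liver at a time gave 11 to 44 member calls in the Double knockout (13 without Double knockout 1, 11 without Double knockout 2, 44 without Single knockout 3) and 20 to 31 in the Single knockout. All probe sets called were 2533 to 4663 in the Double knockout (2533 without Double knockout 1, 2595 without Double knockout 2) and 1 to 80 between the knockouts, with 80 without Double knockout 1. Quantile normalization split the calls over all probe sets into 2328 higher and 2171 lower in the Double knockout, and median scaling into 1626 and 2507, against 2716 and 1637 as reported; the median over all probe sets was -0.02, -0.13 and 0.11. Median scaling split the member calls into 0 higher and 35 lower in the Double knockout and 3 higher and 18 lower in the Single knockout.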
